A study of Mus musculus with 12 samples.

Results

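The probes described here read low in mouse lung tumors 48 h after a mutant oncogene was switched off, with means at 24 h that were less than 0.4 below the tumors with the oncogene on, on a log2 scale. They were chosen by their measured values. In the authors' deposited table, restored to a log2 scale, a member had a detection p-value below 0.05 on at least 4 of 12 arrays, a mean at 48 h at least 0.8 below the mean of the tumors with the oncogene on, a mean at 24 h less than 0.4 below it, and all 4 values at 48 h below all 4 with the oncogene on. A difference of 1 on this scale is a 2-fold change. The rule found 160 of 45281 probes, or of the 21232 that were detected often enough to be tested. Of these members 132 carried 1 gene symbol in the platform annotation, which gave 115 genes, and 28 could not be named. Since the comparisons of both times with the on tumors chose the members, their values in those comparisons, and at 48 h against 24 h, are given as a description and without p-values. Counts of calls among them stand beside the share of all tested probes, and nothing is read from them.

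The tumors came from mice of strain FVB/SV129 aged 19 weeks, all fed freely, and were microdissected and then snap-frozen. Of the 12 RNA samples, 4 came from tumors with the mutant oncogene on, 4 from tumors 24 h after inactivation and 4 from tumors 48 h after. Per the labels the mutant oncogene was present in all 3 groups, and no tumor-free lung was analysed here. The promoter that drove it and the way it was switched off are not given in the sources used here. Replicates are numbered, with no statement of which mouse each tumor came from, so the p-values below reflect only how these samples scatter. In whole tumor RNA, fewer cells of a type and less RNA per cell cannot be told apart.

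Some genes of the set are known from lipid metabolism, the cell cycle and the alveolar type 2 cell. Alveolar type 2 cells make surfactant, pack it into lamellar bodies and secrete it, and they depend on a steady supply of cholesterol and fatty acids made by enzymes under the control of sterol-sensing transcription factors. Dividing cells switch on the genes of DNA replication before S phase and those of chromosome segregation before mitosis, and growth signals through the ERK kinases feed both these programmes and transcription factors of the ETS family such as Etv5.

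Promoter sequences are shown for 5 members described in detail below: Insig1 and Msmo1 of sterol metabolism, Cdc20 of mitosis, Mcm3 of DNA replication and Etv5 of ERK signalling. Each sequence is the 250 bases before the gene's first listed start in the RefSeq annotation of build GRCm38.p6, written 5′ to 3′ on the gene's strand, and capitals mark the CCAAT box or its reverse complement ATTGG, a short element bound by the transcription factor NF-Y. Insig1 lies on the plus strand (chr5:28071162-28071411), and Msmo1 (chr8:64733579-64733828), Cdc20 (chr4:118437344-118437593), Mcm3 (chr1:20820313-20820562) and Etv5 (chr16:22439571-22439820) lie on the minus strand.
Insig1: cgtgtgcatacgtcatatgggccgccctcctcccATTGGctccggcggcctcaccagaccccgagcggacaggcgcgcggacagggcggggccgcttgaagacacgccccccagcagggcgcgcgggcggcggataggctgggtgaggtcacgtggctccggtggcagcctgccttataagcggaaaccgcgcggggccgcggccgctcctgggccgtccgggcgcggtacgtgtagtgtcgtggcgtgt
Msmo1: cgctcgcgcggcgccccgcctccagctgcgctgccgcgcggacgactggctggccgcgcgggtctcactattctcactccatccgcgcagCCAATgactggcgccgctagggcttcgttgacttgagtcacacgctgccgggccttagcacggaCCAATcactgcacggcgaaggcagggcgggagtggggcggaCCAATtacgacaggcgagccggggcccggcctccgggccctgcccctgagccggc
Cdc20: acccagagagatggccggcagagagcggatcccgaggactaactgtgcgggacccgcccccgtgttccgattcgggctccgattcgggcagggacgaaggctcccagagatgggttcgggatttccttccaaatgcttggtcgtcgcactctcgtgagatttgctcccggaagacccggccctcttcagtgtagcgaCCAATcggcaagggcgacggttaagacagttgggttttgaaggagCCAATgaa
Mcm3: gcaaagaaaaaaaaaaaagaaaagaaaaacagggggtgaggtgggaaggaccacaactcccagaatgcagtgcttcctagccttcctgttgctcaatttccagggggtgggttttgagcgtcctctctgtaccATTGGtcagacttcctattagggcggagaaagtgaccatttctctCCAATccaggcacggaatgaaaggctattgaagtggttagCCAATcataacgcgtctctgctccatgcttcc
Etv5: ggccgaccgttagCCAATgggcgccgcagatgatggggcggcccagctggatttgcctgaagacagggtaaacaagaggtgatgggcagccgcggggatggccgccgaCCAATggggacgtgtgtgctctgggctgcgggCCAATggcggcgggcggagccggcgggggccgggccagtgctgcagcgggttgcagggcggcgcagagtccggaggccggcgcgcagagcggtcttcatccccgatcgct
The Msmo1, Mcm3 and Etv5 windows held 3 matches each, the Cdc20 window held 2 and the Insig1 window held 1. These 5 do not stand for all members described below: the windows of Lamp3, Cxcl15, Tk1 and Nme2 held no match and are not shown. Of the 115 member genes, 90 had a promoter in the RefSeq table, and 45 of these windows (50%) held CCAAT on either strand. The same letters were found in 34.5% of all 27025 promoters and in 35.6% of the 9181 promoters of tested genes. This was 1 of 15 motifs searched on both strands. GGGCGGGG, read by SP1, was in 33.3% of member windows and 29.8% of windows of tested genes. TTCNNNGAA, read by STAT factors, was in 11.1% and 6.11%, the E2F motif GGCGGGAA in 2.22% and 3.49%, and the ETS motif CCGGAAGT in 4.44% and 5.66%. The sterol element TCACNCCAC was in 1 member window, that of Ctsc (1.11%), against 0.86% of those of tested genes. These are matches of letters in 1 window per gene, not measured binding.

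The arrays detected between 42.5% and 46.2% of probes each, with a median of 44 beads behind a value, and the number of arrays, 4 a group, limits the precision. They lay on 2 BeadChips of 6 arrays: all on samples shared the first chip with 48 h replicates 1 and 2, and all 24 h samples shared the second with 48 h replicates 3 and 4. At 24 h against on, chip and time can be separated only through the 48 h arrays, 2 on each chip, while each comparison with 48 h also had a value within 1 chip. One sample stood apart among the members: 48 h replicate 3 was the highest of the 4 arrays at 48 h for 101 of the 160 members (63.1%), against 32.2% of all tested probes. The members it moved most are given with and without it.

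**Figure D1:**
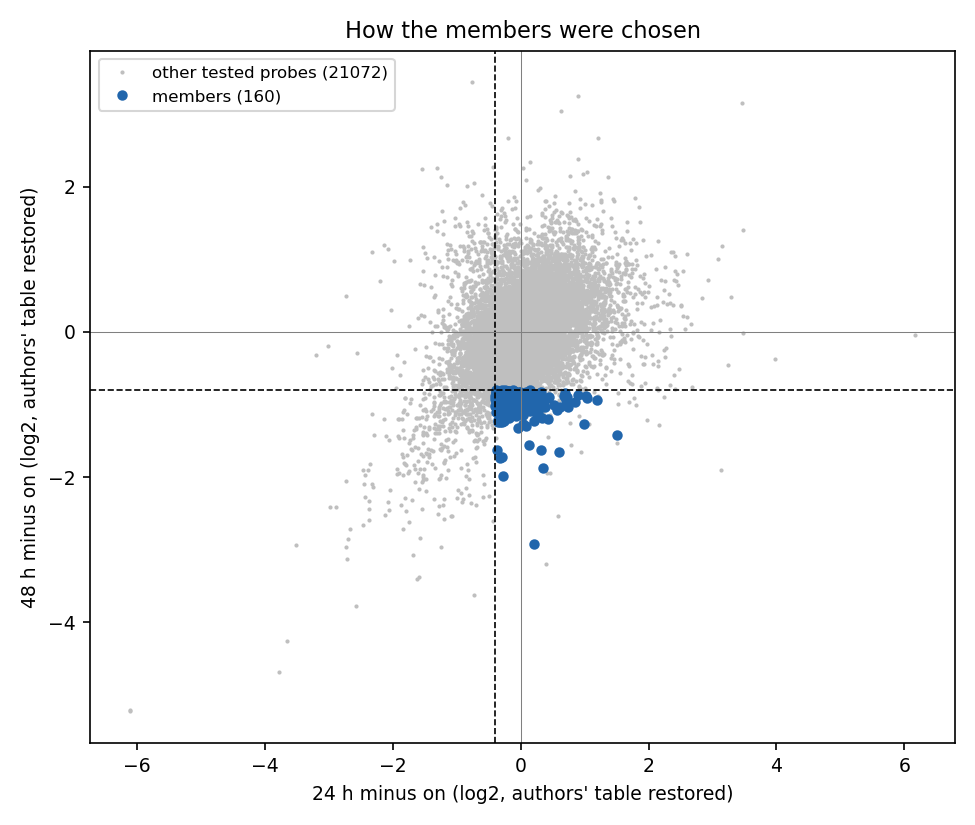
The plot of both differences shows each tested probe by its mean difference from the on tumors at 24 h (horizontal) and 48 h (vertical), on the log2 scale of the authors' restored table. The 160 members (blue) lie below the dashed line at -0.8 and to the right of the dashed line at -0.4, as the rule demands, and the other 21072 probes are grey; probes in that corner that are not members had 48 h values that overlapped the on values.

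Over all members the median difference from the on tumors was -0.90 at 48 h and -0.10 at 24 h, in normalized log2 intensity computed here from the scanner table, with a median SE of 0.18. Over all tested probes the medians were -0.01 and -0.02. The median over the members read between 7.26 and 7.54 on the 4 on arrays, between 7.33 and 7.54 at 24 h, and 6.28, 6.20, 6.60 and 6.27 at 48 h. The on and 24 h arrays therefore covered the same range, and every array of 48 h lay below it. All on arrays lay on the first chip and all 24 h arrays on the second. Among the 48 h arrays the members read a median of 0.26 higher on the second chip, against -0.01 over all tested probes. The part of the chip in the level values at 24 h was not tested. By limma with Benjamini-Hochberg adjustment 153 members were called lower at 48 h than on, where the background was 11.0% of tested probes, and 0 were called higher, with a background of 9.66%. The 7 others were Tafa4, Tgfbr1, Gal, Tnfrsf10b, 1 of 2 probes of Insig1, Rangap1 and Ccl12. At least 2-fold lower were 50 members, against 1.8% of tested probes. The rule used these values. At 48 h against 24 h the median was -0.80 and 149 members were called lower, with a background of 13.8%, a count that the rule largely fixed. It was 71 with BeadChip as a fixed term and 28 within the second chip. All 4 values at 48 h lay below all 4 at 24 h for 134 members, which 13.6% of tested probes also showed. At 24 h against on 13 members were called higher (background 11.5%) and 5 lower (background 12.2%), and with BeadChip as a fixed term 1 was higher and 0 were lower. The members were somewhat brighter than the typical probe, with a median on level of 7.33 at percentile 58.2 of all tested probes, and ran from Gal at 4.70 to Cxcl15 at 14.52. Of the 115 genes, 26 stood on 17 of the 55 gene lists and marker sets examined, and counts of list probes as lower or higher below are calls of the same limma fit against on unless stated. Unless stated otherwise these counts include the member probes, which the rule chose for low values at 48 h. The fit behind the list counts has no chip term. With BeadChip as a fixed term, all probes called at 24 h against on fell from 5025 to 126. List counts at 24 h were not taken with that term, so there they do not separate time from chip.

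**Figure D2:**
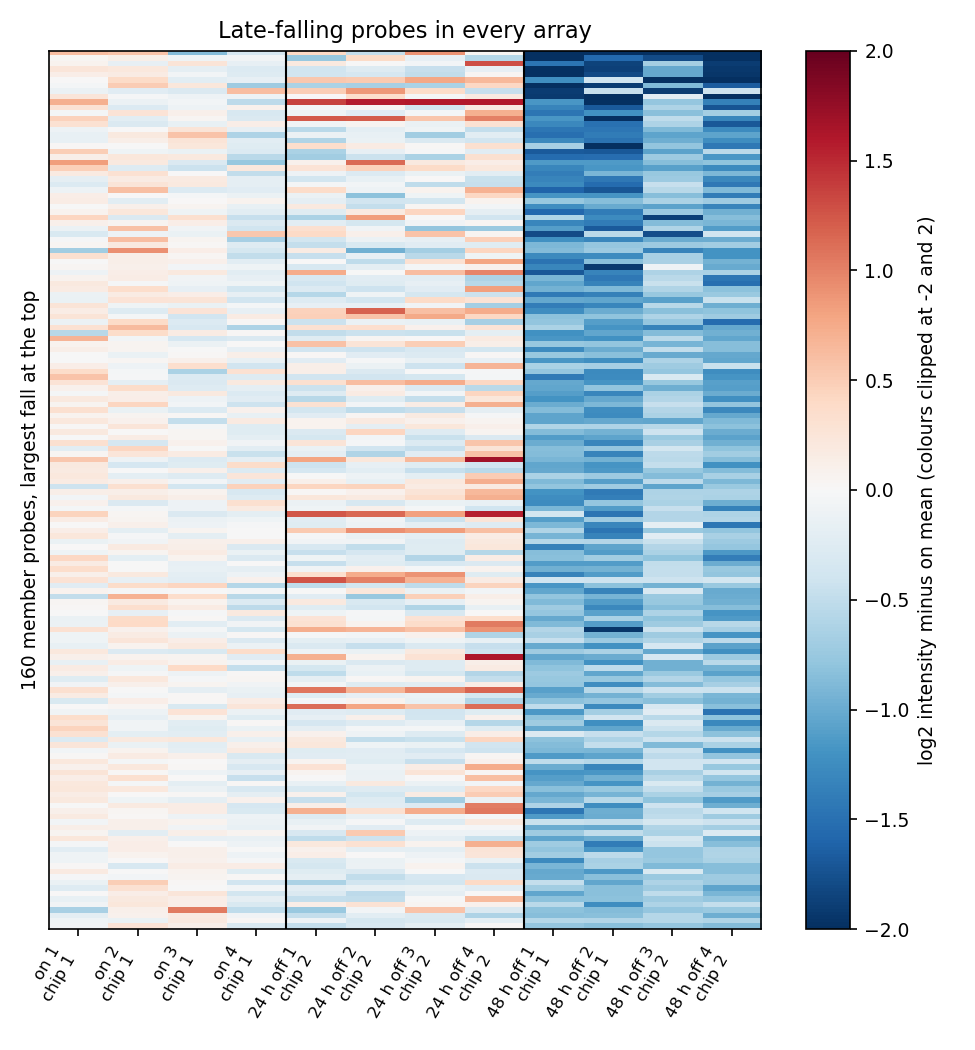
The heat map shows each of the 160 members (one line each, largest fall at the top) on each of the 12 arrays as its normalized log2 intensity minus the mean of the on arrays, with colours clipped at -2 and 2. The 4 columns of 48 h are blue throughout, and the third of them, 48 h replicate 3, is the palest; the columns of 24 h are mostly pale, with some lines in red.

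The brightest named members were secreted or packaged products of the lung epithelium. Trf, which encodes the plasma iron carrier transferrin, read 14.28, 14.35, 14.15 and 14.16 with the oncogene on, 13.48, 14.62, 14.07 and 13.67 at 24 h and 11.85, 12.67, 12.44 and 12.06 at 48 h. The 24 h values spanned the on values and the 48 h values lay clear below both. Its difference at 48 h was -1.98 (SE 0.23, n = 4 against 4), the largest of any named member. Lamp3, a membrane protein of lamellar bodies, read 12.46, 12.44, 12.04 and 11.95 on, 11.82, 11.97, 11.77 and 12.06 at 24 h and 10.08, 10.36, 11.20 and 10.29 at 48 h. All 48 h values were below the rest, with replicate 3 the highest. The difference was -1.74 (SE 0.21), or -1.98 without that replicate, and the other Lamp3 probe gave -1.73. Cxcl15, a chemokine made by lung epithelium, read 14.75, 14.49, 14.41 and 14.41 on, 14.52, 14.87, 14.47 and 14.70 at 24 h and 12.60, 12.49, 14.29 and 12.49 at 48 h. Of these, 3 arrays at 48 h were far below every other array, and replicate 3 lay just under the lowest on value. The difference was -1.55 (SE 0.32) and became -1.99 without replicate 3.

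Etv5, an ETS transcription factor induced by ERK signalling and needed to keep the type 2 cell fate, had 2 member probes. The brighter read 10.59, 10.03, 10.19 and 10.40 on, 10.26, 10.35, 9.94 and 10.49 at 24 h and 8.98, 8.63, 9.69 and 8.57 at 48 h. On and 24 h values overlapped fully, and replicate 3 was again the highest at 48 h. The differences were -1.34 (SE 0.22) and -1.28 (SE 0.21), and the first was -1.58 without replicate 3. Etv5 is on the list of ERK targets and feedback genes. Of the 27 tested probes of that list, 18 were lower at 24 h, in the fit without a chip term, and 21 at 48 h. None was higher at either time, and the median difference of the list was -0.84 and -1.29. Without the 2 member probes, 18 of 25 were lower at 24 h and 19 at 48 h. At 24 h Etv5 read -0.05 and 0.03.

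Of the alveolar type 2 list, 26 probes for 13 genes were tested, and 5 of them were members. At 48 h 11 of the 26 were lower and 1 higher, and at 24 h 2 were lower and 0 higher; among the 21 probes that were no members, 6 were lower and 1 higher at 48 h. The median of the list at 48 h was -0.32. Among these the surfactant protein gene Sftpb differed by -0.79 (SE 0.13, limma adjusted p = 0.0020), as did Napsa, the protease that matures surfactant proteins (-0.69, limma adjusted p = 0.0020), and Lyz2, a lysozyme of type 2 cells and macrophages (-0.57, limma adjusted p = 0.0105). Nkx2-1, the transcription factor that specifies lung epithelium, was higher by 0.58 (limma adjusted p = 0.0069), so the list held genes that moved either way. Markers of 3 other lung cell types were called mainly higher. Of 14 alveolar type 1 probes, 10 were higher at 24 h and 8 at 48 h with 0 lower, and their mean level ranged from 9.19 to 9.55 on, 10.16 to 10.73 at 24 h and 9.90 to 10.07 at 48 h. Of 19 endothelial probes 12 and 9 were higher at 24 h and 48 h with 1 and 0 lower, with mean levels of 8.28 to 8.50, 8.80 to 9.36 and 8.74 to 8.86. Of 17 fibroblast probes 13 and 5 were higher with 0 lower, with mean levels of 6.62 to 6.98, 7.78 to 8.03 and 6.97 to 7.88. Among the genes of these 3 lists only Kdr, an endothelial receptor, was undetected on all arrays. Macrophage markers had 3 of 15 probes lower and 0 higher at 48 h, and 2 of these 3 were members. Among the 13 macrophage probes that were no members 1 was lower, and the list median was 0.01. Neutrophil markers had 2 of 7 probes lower and B and plasma cell markers 3 of 6, with 0 higher. T cell and dendritic cell markers had 1 probe each higher and 0 lower. The part of any of these cells in the falls was not tested.

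**Figure D3:**
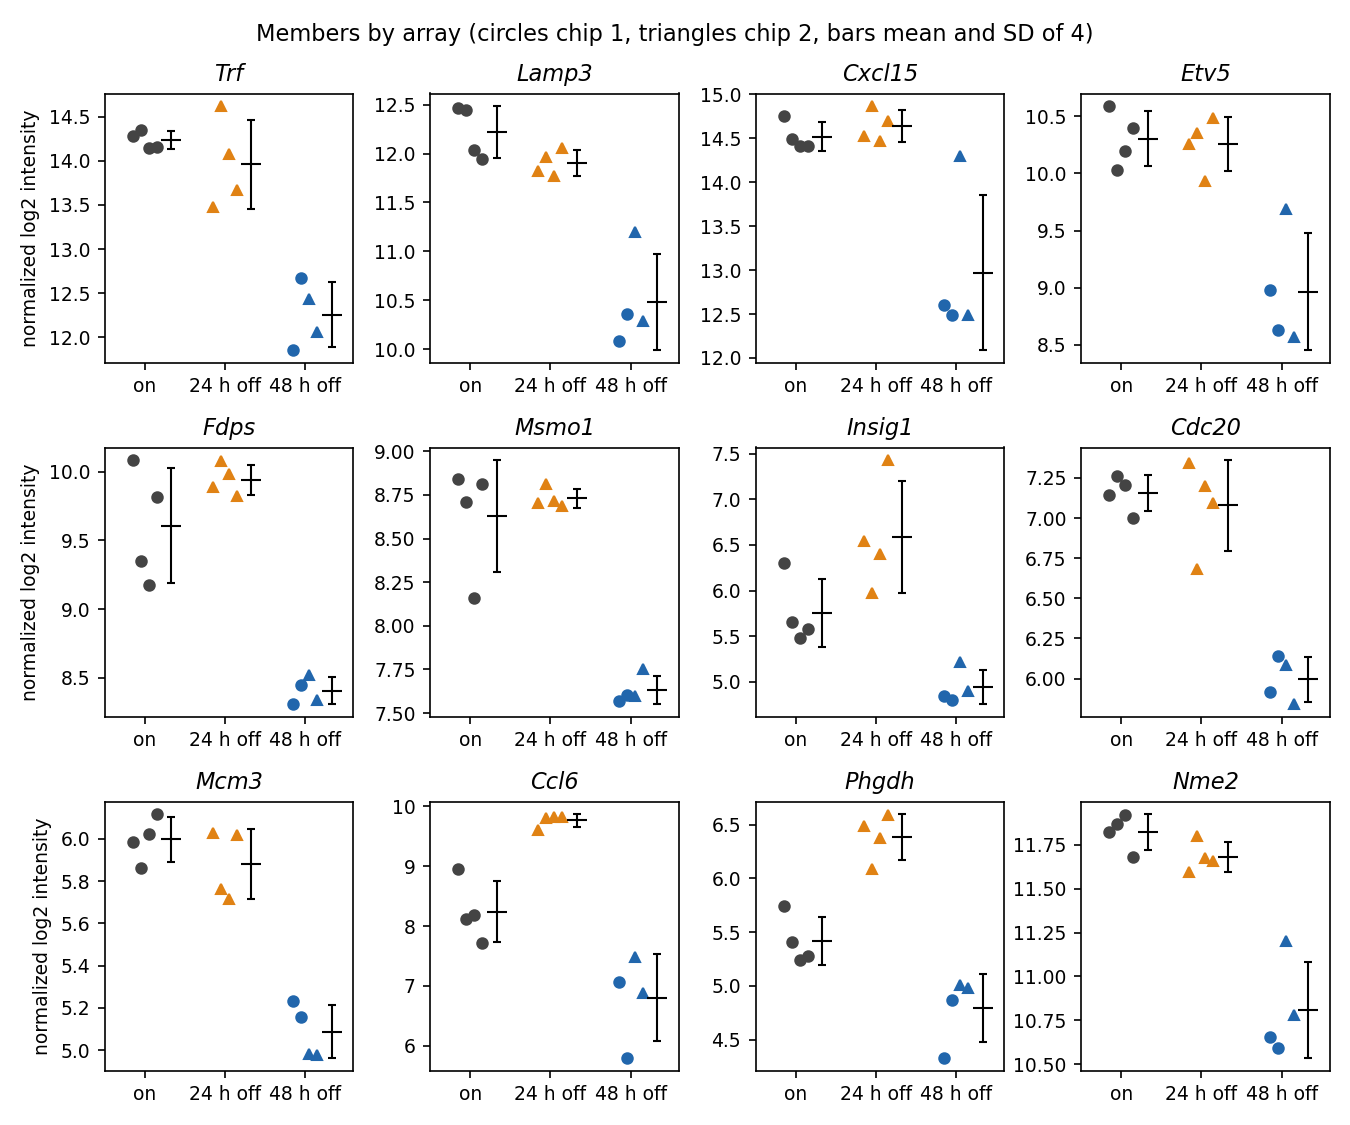
The panels show 12 member probes on each array in normalized log2 intensity, by group, with circles for the first and triangles for the second BeadChip and bars for the mean and SD of 4 arrays. In each panel the 4 values of 48 h (blue) lie below the on values (grey), and for Ccl6 and Phgdh the 24 h values (orange) lie above them.

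Members of cholesterol metabolism were level with the on tumors or above them at 24 h and low at 48 h. Fdps, which makes farnesyl diphosphate on the way to cholesterol, read 10.09, 9.35, 9.17 and 9.82 on, 9.89, 10.08, 9.98 and 9.83 at 24 h and 8.31, 8.45, 8.52 and 8.34 at 48 h. The 24 h values sat at the top of the on range, and the 48 h values were tight and below both groups. The difference was -1.20 (SE 0.17) at 48 h and 0.34 at 24 h. Msmo1, a sterol demethylase, read 8.84, 8.71, 8.16 and 8.81 on, 8.70, 8.81, 8.72 and 8.69 at 24 h and 7.57, 7.61, 7.60 and 7.75 at 48 h, a difference of -1.0 (SE 0.14). Here too 24 h and on overlapped while 48 h did not overlap either. Insig1, the endoplasmic reticulum protein that holds back the sterol-sensing factors, had 2 member probes near the lower end of the scale. The first read 6.30, 5.66, 5.48 and 5.58 on, 6.55, 5.98, 6.40 and 7.44 at 24 h and 4.84, 4.80, 5.22 and 4.89 at 48 h. Its 24 h values were mostly above the on values, at a mean difference of 0.84, and its 48 h values were lowest at -0.81 (SE 0.27). The second Insig1 probe gave 0.67 at 24 h and -0.78 at 48 h and was the one not called lower than on. A brighter Insig1 probe outside the set, at an on level of 7.48, gave 0.68 at 24 h and only -0.15 at 48 h, which was not called.

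Of the 23 tested probes on the list of cholesterol synthesis and uptake, 14 were lower and 0 higher at 48 h, 6 were higher and 1 lower at 24 h, and 17 were lower at 48 h than at 24 h. Without the 4 member probes, 11 of 19 were lower at 48 h. Examples were Lss, lanosterol synthase (-0.77, limma adjusted p = 0.0019), Stard4, a sterol carrier (-0.75, limma adjusted p = 0.028), Cyp51, the lanosterol demethylase (-0.74, limma adjusted p = 0.0038), and Mvd, a mevalonate pathway enzyme (-0.68, limma adjusted p = 0.0059). Of 28 probes for fatty acid synthesis and activation, 8 were lower and 0 higher at 48 h, and 2 were members. Among the 26 that were no members, 6 were lower. Elovl1, an elongase of very long fatty acids, differed by -0.88 (SE 0.20) and the member probe of Acsl5, which activates fatty acids with coenzyme A, by -0.85 (SE 0.18). Other Acsl5 probes, at on levels of 12.95 and 11.08, differed by -0.12 and -0.22 and were not called. Outside the lists, Plin2, the coat protein of lipid droplets, differed by -1.18 (SE 0.28), and Sptlc2, a subunit of the enzyme that begins sphingolipid synthesis, by -1.15 (SE 0.21).

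Genes of the cell cycle formed the next group. Cdc20, the activator of the anaphase-promoting complex, read 7.14, 7.26, 7.21 and 7.0 on, 7.34, 6.68, 7.20 and 7.09 at 24 h and 5.92, 6.14, 6.08 and 5.84 at 48 h. The 48 h arrays lay close together and far below the rest, and replicate 3 did not stand out. The difference was -1.16 (SE 0.14), and the second Cdc20 probe gave -0.90 (SE 0.16). Mcm3, a subunit of the replicative helicase, read 5.98, 5.86, 6.02 and 6.12 on, 6.03, 5.76, 5.72 and 6.02 at 24 h and 5.23, 5.16, 4.98 and 4.98 at 48 h. The groups of on and 24 h overlapped and 48 h lay below both, at -0.91 (SE 0.11). Gins2, part of the same helicase complex, was higher at 24 h by 0.56 on its member probe. That probe was undetected on all arrays of 48 h, so that only a lower bound of about 1.5-fold can be given for the on tumors. Tk1, thymidine kinase, differed by -0.90 (SE 0.19) at 48 h. Of 30 tested probes for S phase and DNA replication, 10 were lower and 0 higher at 48 h, 4 were higher and 2 lower at 24 h, and 18 were lower at 48 h than at 24 h. Without the 3 member probes, 7 of 27 were lower at 48 h, and 15 were lower at 48 h than at 24 h. Among those that were no members, Mcm2 (-0.92, limma adjusted p = 0.0017), Mcm6 (-0.79, limma adjusted p = 0.0074) and Mcm5 (-0.67, limma adjusted p = 0.0289) are further helicase subunits and Tyms (-0.59, limma adjusted p = 0.0143) makes thymidylate. Mcm2 was already lower at 24 h, by -0.48 (limma adjusted p = 0.0375). Of 27 mitosis probes, 9 were higher and 0 lower at 24 h, 9 were lower and 0 higher at 48 h, and 19 were lower at 48 h than at 24 h. Leaving out the 2 member probes, 7 of 25 were lower at 48 h, and 17 were lower at 48 h than at 24 h. Another 10 genes of the mitosis list were undetected on all arrays.

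**Figure D4:**
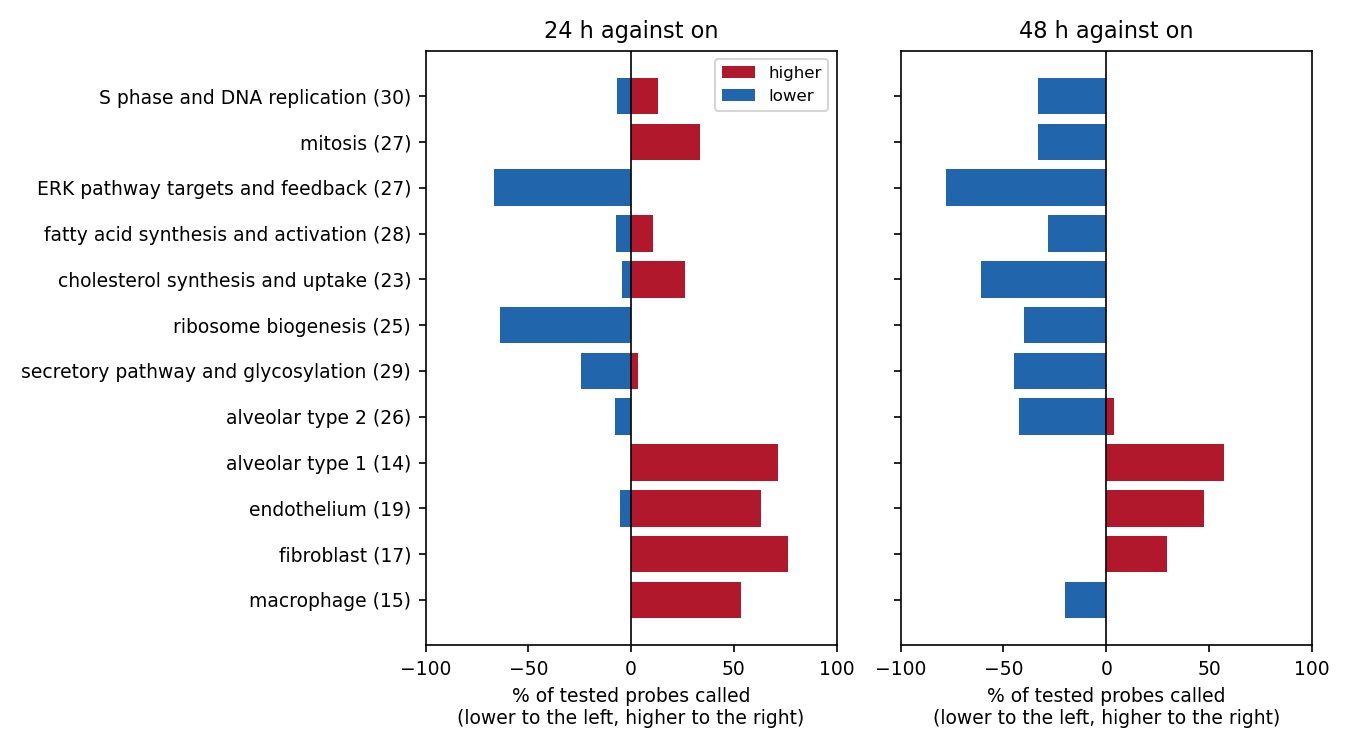
The bars show, for 12 gene lists and marker sets, the percentage of tested probes (number in brackets) called higher (red, right) or lower (blue, left) than on by limma at 24 h and 48 h. At 24 h 6 cholesterol probes were called higher and 1 lower, 4 and 2 for S phase and 9 and 0 for mitosis; at 48 h all calls on these 3 lists were lower. ERK targets were lower at both times, and alveolar type 1, endothelial and fibroblast markers were higher at both. All counts include the member probes, which the rule chose for low values at 48 h. The fit has no chip term, and all on arrays lay on the first BeadChip and all 24 h arrays on the second.

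The 13 members called higher at 24 h, a count that fell to 1 with BeadChip as a fixed term, had low values at 48 h by the rule. Ccl6, a chemokine of myeloid cells, read 8.95, 8.12, 8.19 and 7.71 on, 9.60, 9.81, 9.83 and 9.82 at 24 h and 7.07, 5.79, 7.48 and 6.89 at 48 h. The 3 groups did not overlap in any pair. The difference from on was 1.52 (SE 0.32) at 24 h and -1.44 (SE 0.32) at 48 h, and the direct difference between both times was -2.96, or 7.78-fold on a linear scale. Phgdh, the first enzyme of serine synthesis, read 5.74, 5.41, 5.24 and 5.28 on, 6.49, 6.09, 6.38 and 6.59 at 24 h and 4.32, 4.86, 5.0 and 4.98 at 48 h, again in 3 separate ranges. Its differences were 0.97 and -0.62 (SE 0.17). Car4, a membrane carbonic anhydrase, gave 1.0 at 24 h and -1.29 (SE 0.30) at 48 h. The others called higher at 24 h were Qpct, Gins2, Knstrn, Insig1, Mcoln3, the neuropeptide gene Gal, the serotonin transporter gene Slc6a4, Pea15a and 2 unnamed probes. Mrc1, the mannose receptor of macrophages, read 10.03, 9.81, 9.70 and 9.39 on, 10.46, 10.42, 10.32 and 10.64 at 24 h and 9.14, 7.78, 9.30 and 9.06 at 48 h. It lay highest at 24 h without overlap and lowest at 48 h, where replicate 2 was far below the others, and the difference of -0.91 (SE 0.27) became -0.56 without that replicate. Of 15 macrophage probes, 8 were higher and 0 lower at 24 h, 3 were lower and 0 higher at 48 h and 11 were lower at 48 h than at 24 h. Without the 2 member probes, 7 of 13 were higher at 24 h, 1 was lower at 48 h and 9 were lower at 48 h than at 24 h. The mean level of the 15 probes ranged from 7.59 to 8.17 on, 8.92 to 9.04 at 24 h and 6.70 to 7.89 at 48 h. Of the macrophage genes 1, Atp6v0d2, was undetected on all arrays. The mean level of 7 neutrophil probes was 6.24 to 6.93 at 24 h against 5.52 to 6.11 on and 5.09 to 5.66 at 48 h, and the part of either cell type in the values of Ccl6 and Mrc1 was not tested.

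Further members are named by what each is known to do, with no theme drawn from them. Nme2, a nucleoside diphosphate kinase, read 11.82, 11.87, 11.92 and 11.68 on, 11.59, 11.80, 11.67 and 11.66 at 24 h and 10.65, 10.59, 11.20 and 10.78 at 48 h. The spread within each group was small, and only 48 h lay apart, at -1.02 (SE 0.13) and, for its second probe, -0.99 (SE 0.13). Eif5a, a translation factor, had 2 member probes at -0.96 each (SE 0.20 and 0.19). Calr, the calcium-binding chaperone calreticulin, differed by -1.26 (SE 0.23), and Mif, a cytokine with tautomerase activity, by -1.20 (SE 0.16). Srm, spermidine synthase, differed by -1.12 (SE 0.15). Spcs3, of the signal peptidase, Rrbp1, a ribosome-binding membrane protein, and Ostc, of the oligosaccharyl transferase, differed by -0.94, -0.90 and -0.84. Of 29 probes for the secretory pathway and glycosylation, 13 were lower and 0 higher at 48 h and 7 were lower and 1 higher at 24 h. Of 25 probes for ribosome biogenesis, 16 were lower at 24 h and 10 at 48 h with 0 higher, and only Nhp2, an H/ACA ribonucleoprotein subunit, was a member (-0.84, SE 0.16). Of 32 probes for the unfolded protein response, which holds Calr, 8 were lower and 2 higher at 48 h. Of 22 probes for heat shock proteins, none of them a member, 7 were higher and 1 lower.

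Signalling members were scattered over lists that did not move in 1 direction. Id2, an inhibitor of bHLH transcription factors, differed by -0.37 at 24 h and -0.90 (SE 0.14) at 48 h, Wnt7b, a ligand of the lung epithelium, by -0.18 and -0.84 (SE 0.15), and Tgfbr1, a TGF-beta receptor, by 0.07 at 24 h. At 48 h the Tgfbr1 member probe was undetected, with the on tumors at least 1.23-fold higher. Other Tgfbr1 probes, at on levels of 11.83 and 6.92, differed at 48 h by -0.43 and -0.16, of which only the first was called lower. Of 40 tested probes for WNT, Notch and TGF-beta signalling 9 were lower and 3 higher at 48 h, and without the 3 member probes 7 of 37 were lower. Bmp4, a ligand of the TGF-beta family, was lower by the larger amount of -1.72 (limma adjusted p = 0.0025), and Wnt7a gave -1.42 (limma adjusted p = 0.0023), both with 24 h values too low for the set. Id1 was lower at both times (-0.81 at 24 h, limma adjusted p = 0.0265, and -0.77 at 48 h, limma adjusted p = 0.0369), while Hey1, a Notch target, was higher at 48 h by 0.96 (limma adjusted p = 0.0021). Klf4, a zinc finger transcription factor, differed by -1.13 (SE 0.29) at 48 h, and Tnfrsf10b, a death receptor, by -0.87 (SE 0.29). The transferrin receptor gene Tfrc, which takes up the iron that Trf carries, differed by -1.0 (SE 0.17), while on the iron and metallothionein list as a whole 4 of 16 probes were lower and 5 higher. Leaving out the 2 member probes of that list, 2 of 14 were lower. Tubb2b, a tubulin, differed by -0.83 (SE 0.10).

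Several genes were in the set through more than 1 probe, which share a transcript and are not replicates. The 4 member probes of Lmna, which encodes the nuclear lamins A and C, differed at 48 h by -0.93, -0.90, -0.89 and -0.84, at on levels from 7.90 to 10.11. The 3 of Ctsc, a lysosomal protease, differed by -1.08, -1.08 and -0.96. Pairs were seen for Ggcx, the vitamin K dependent carboxylase (-1.09 and -0.87), Pfkfb4, a regulator of glycolysis (-0.91, and at least 1.36-fold higher on for a probe undetected at 48 h), Dpep2, a dipeptidase of leukotrienes (-0.93 and -0.86), Mrps18b, of the mitochondrial ribosome (-0.85 and -0.83), Inpp4b, a phosphoinositide phosphatase (-0.54, and at least 1.04-fold higher on for an undetected probe), and AU021092 (-1.16 and -0.93). Further members among the largest falls were Tgoln1, of the trans-Golgi network (-1.65, SE 0.33), Lipo3, of a lipase family (-1.62, SE 0.37), Spint1, a serine protease inhibitor (-1.24, SE 0.25), Cyb5r3, a cytochrome b5 reductase (-1.24, SE 0.25), the actin-severing protein gene Cfl1 (-1.17, SE 0.39) and Pde4a, a cAMP phosphodiesterase (-0.99, SE 0.17). Hmga2-ps1 (-1.18, SE 0.22) is by its name a pseudogene of Hmga2. The gene Hmga2 itself was undetected on all arrays, and which transcripts the Hmga2-ps1 probe binds was not tested. The largest fall of all, -2.86 (SE 0.34), belonged to an unnamed probe at an on level of 8.15, which was singled out after its value was seen.

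Detection sets a limit on the dim members. Of the 160, 122 were detected on all 12 arrays and 11 on no array of 48 h, among them Gins2, Tgfbr1, Pafah2, Celf4, Mapkapk3 and Gal. For these the level at 48 h is only a bound, set by the lowest detected signal. The lower bounds on the fold by which the on tumors were higher ran from 1.04 to about 1.5. For Gal the bound was under 1, and no fold is given. Of these 11, 7 were detected on all 4 on arrays.

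The array carried 116 further tested probes for 67 of the member genes. Each of these failed the rule by definition, so a smaller fall at 48 h or a fall at 24 h among them is partly built in. They share the samples and the transcripts of the members, and are given as values. At 48 h 106 of the 116 lay below on, with a median of -0.46 against -0.90 for the members. Of the 116, 55 were called lower (background 11.0%) and 0 higher (background 9.66%). At 24 h, however, 34 were called lower (background 12.2%) and 4 higher (background 11.5%). Another probe was already called lower at 24 h for 25 genes, so for these the probes of a gene differed in when they fell. These calls come from the fit without a chip term. With BeadChip as a fixed term all probes called at 24 h fell from 5025 to 126, and these 116 were not counted again. Examples, chosen after their values were seen, were 2 probes of Celf4, an RNA-binding protein of neurons, which gave -1.60 and -1.97 at 24 h and -1.64 and -2.08 at 48 h against -0.15 at 24 h for its dim member probe, which was undetected at 48 h. Id2 gave -1.38 and -0.68 at 24 h on other probes, Srm -0.71 and -0.67, and Klf4 -0.88 and -0.52, of which the last was not called. Lamin probes went with the members: the other 2 for Lmna gave -0.14 and -0.10 at 24 h and -0.66 and -0.78 at 48 h. For some genes other probes differed little from on at 48 h, by 0.14 and 0.08 for Mapkapk3 at on levels of 9.06 and 8.96, and by 0.05 for the 1 bright probe of Tubb2b at 8.59. Further examples, not called lower, were Spint1 (-0.25 at an on level of 12.32), Abcc5 (0.03 at 9.04), Chmp7 (0.05 at 9.18) and Insig1 (-0.15 at 7.48). Bright probes of Acsl5 (-0.12 and -0.22) and Selenot (-0.13 and -0.16) were not called either, while a dimmer Selenot probe gave -0.58. All of these were chosen after their values were seen. The other probes of Tk1 (on level 4.94) and Nme2 (4.81) and the other 3 of Tubb2b (from 4.68 to 5.51) read near the lower end of the scale in every group, where a fall could not be seen. Nme2 and Tubb2b have close relatives in the genome, and which transcripts each probe binds was not tested.

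**Figure D5:**
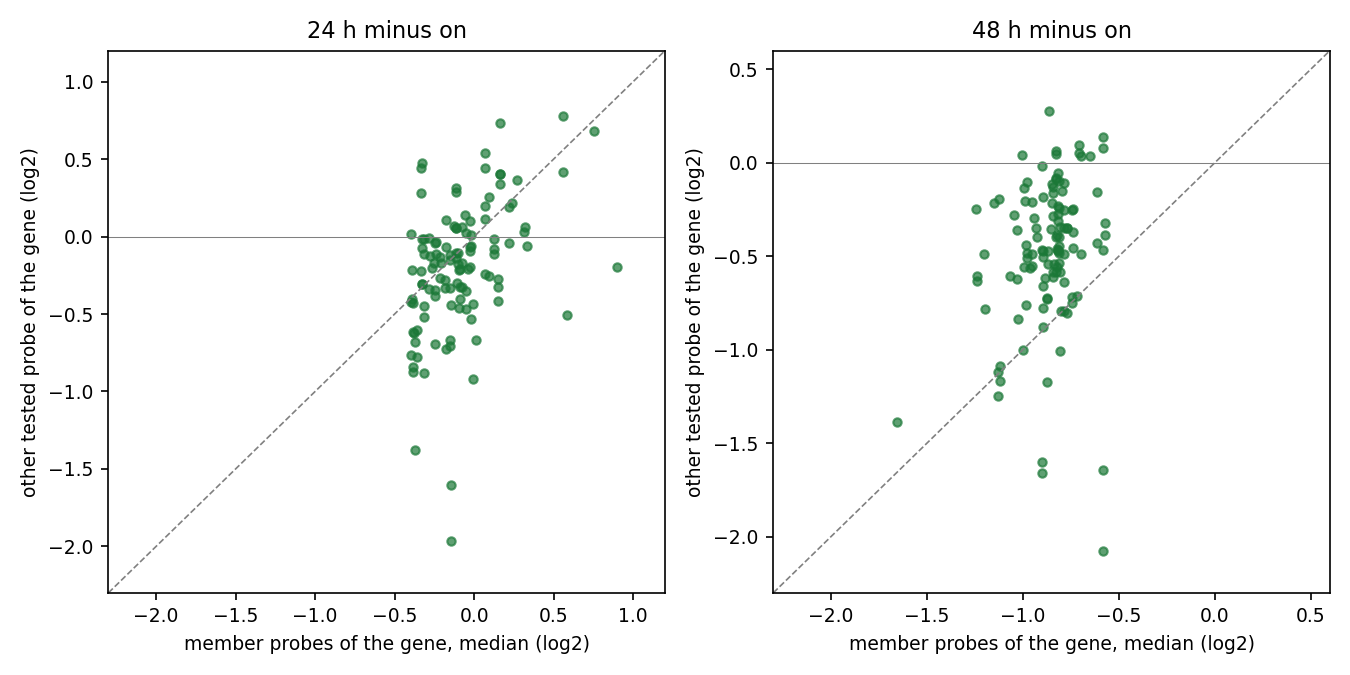
The plot sets each of the 116 other tested probes of member genes (vertical) against the median of the gene's member probes (horizontal), as log2 differences from on at 24 h and 48 h, with a dashed line where both are equal. At 48 h 106 points lie below 0 but most lie above the dashed line, and at 24 h the points spread down to -1.97.

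The thresholds cut through a continuous range. Just inside the limit at 48 h lay Eef2kmt, Mapkapk3 and G3bp2, each at -0.80 in the authors' deposited table restored to log2, and just outside lay G6pc3 and an unnamed probe, which also round to -0.80, and Ate1 at -0.79. Just inside the limit at 24 h lay Rrbp1, Spcs3 and Id2, all at -0.39, and just outside lay an unnamed probe at -0.40, Mybbp1a at -0.41 and an unnamed probe at -0.41. Of the 5 members called lower at 24 h all lay near that limit: Gss, Spcs3, Rrbp1, Tubb2b and Eef2kmt, at between -0.40 and -0.33.

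The rule did not compare the 48 h arrays between the BeadChips, but it did use the 48 h arrays of both chips. Its limit at 24 h set the 24 h arrays, all on the second chip, against the on arrays, all on the first. Probes that read higher on the second chip passed that limit more easily. The values between the chips are therefore not independent of the rule, and are given as a description. The second chip minus the first gave a median of 0.26 over the members and -0.01 over all tested probes (median SE over the members 0.24), and 129 of the 160 members (80.6%) were higher on the second chip, against 49.0% of all tested probes. By limma 0 members were called after adjustment, as were 2 of all tested probes (0.00942%), while 25 members had an unadjusted p below 0.05 (background 7.98%). Each side held 2 arrays, and the second included replicate 3. Within the first chip the median difference of the members between 48 h and on was -1.02, with 138 called lower (background 7.33%). Within the second chip the median between 48 h and 24 h was -0.73, with 28 called lower (background 1.3%). The rule used these arrays, so nothing is read from either count.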

How the data were processed

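RNA of 12 mouse lung tumors was hybridised as biotinylated cRNA to Illumina mouse BeadChip arrays, 1 sample each, in 3 groups of 4. Per the file headers, the scanner table deposited by the authors lists, per probe, the linear intensity averaged over its beads, with no sign of background correction or normalization. The authors' deposited detection p-value sets each probe against the negative controls of its array. The authors' deposited table also holds, as a positive signal, the standard error over the beads, and, per the file headers, a count of beads, with a median of 44. The second table the authors deposited holds log2 values of values that were themselves log2: raised to the power of 2, its values have a median of 4.23 on every array and equal quantiles within 0.01, which shows quantile-normalized log2 intensities, in the scanner's rank order (rank correlation at least 0.999994). No source used here gives the scanner software or the authors' normalization steps. Of the scanner table, 24 columns were left unused.

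The membership rule was applied to the restored value table, rounded to hundredths. All other values came from the scanner table: background correction by the detection p-values, an offset of 16, quantile normalization and log2 (neqc in limma 3.58.1, R 4.3.3). The 21232 probes (46.9%) with detection p below 0.05 on at least 4 arrays were fitted in 1 limma model of the 3 groups, with 9 residual degrees of freedom and 3.51 from the prior, and p-values were adjusted by Benjamini-Hochberg within each comparison. A probe was called at an adjusted p below 0.05. The fit was also run on simulated data with independent noise and no chip effect, and the outcome is not given here. Tables and figures used Python 3.11.15, pandas 2.3.3 and matplotlib 3.10.9.

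Genes came from the platform annotation, with symbols updated through RefSeq: 34885 probes had 1 symbol, 18 several and 10378 none. Members and gene lists were chosen with earlier results of these data known, and the sterol element was added after the other motifs had been searched. Named are the 20 members with a symbol and the largest falls, genes with 2 or more member probes, members on a list, the 3 probes nearest to each threshold on either side, and the 3 brightest and 3 dimmest members; among other genes, up to 4 a list with the largest change at 48 h, for lists with 3 or more member genes. A few others are named for their role and were chosen after their values were seen. The oncogene itself is not reported here. Alternatives covered background correction, normalization, source table, probe filter, BeadChip, replicate number, groups in the fit, array weights, the rule's thresholds and leaving out each array.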

Additional observations from a re-analysis of the deposited data

Results flagged for a closer look

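One array lay far from the other 3 of its group in 13 of 285 groups of 4 arrays, which were those of the 94 named probes and of the median over the members, counted by the gap to the nearest other array as a share of the group's range, against the critical value of Dixon's test; chance passes it about 1 time in 20. At 48 h the share was 0.939 for Cxcl15, 0.860 and 0.953 for the Ggcx probes, 0.867 for Nhp2 and 0.893 for Bmp4, each with 1 array high, and this was replicate 3 in all of them. Mrc1 at 48 h gave 0.842 with replicate 2 low. At 24 h Tgoln1 gave 0.973 with replicate 4 high, and Ccl6 (0.929), Calr (0.833) and Sftpb (0.856) had 1 array low. With the oncogene on, Cyb5r3 (0.860), Eif5a (0.891) and the second Insig1 probe (0.867) had replicate 4 low. The times also differed from each other in the direct comparison, with 149 of the 160 members lower at 48 h than at 24 h, a difference that the rule largely built in.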

How the results depend on the processing

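At 48 h against on, 153 members were called lower, and between 136 and 156 under every alternative fitted to all arrays; leaving out 1 array gave 137 to 149. All tested probes called in that comparison were 4390, and 2921 within the first BeadChip, or 2810 (without on replicate 2) to 4813 with 1 array left out. At 48 h against 24 h, the 149 members became 71 with BeadChip as a fixed term and 28 within the second chip, and 126 to 149 with 1 array left out; all probes called went from 5664 to 1262 and 435, and to 3677 (without 48 h replicate 2) to 5882 with 1 array left out. Within a chip 2 arrays face 4. At 24 h against on, where chip and group can be separated only through the 48 h arrays, BeadChip as a fixed term took the probes called from 5025 to 126, the members called higher from 13 to 1 and those called lower from 5 to 0. The members lower at 24 h were 2 with cyclic loess, 2 without a probe filter, 8 with only the groups compared in the fit and 16 with array weights, and 1 to 4 with 1 array left out; those higher were 8 to 14. Between the chips at 48 h the 2 probes called became 4 without a probe filter and 5 to 25 with 1 array left out, and members called 0 to 1. The rule itself found 426 probes with a limit of -0.6 at 48 h, 62 with -1 and 252 without the demand on overlap; leaving out 1 array gave 155 to 318, with 283 without on replicate 4 and 318 without 48 h replicate 3. The alternatives were run for single named probes only in the comparisons with 48 h, not at 24 h against on. Of those, only 48 h against 24 h changed sign. There Id1, at 0.04, gave -0.12 with array weights and -0.22 to 0.17 with 1 array left out. Of these, -0.04 and -0.06 came without 24 h replicates 2 and 4. For 1 unnamed probe outside the set, at -0.51, the value ran from -0.77 to 0.066. The cause was not tested. With the replicate number as a block, the members called lower were 145 at 48 h against on, 138 at 48 h against 24 h and 2 at 24 h. The labels do not say whether any samples were paired. Of same-numbered pairs, 3 of 12 correlated above 0.1 (range -0.29 to 0.22), and 3 arrays correlated best with their own number. These values cannot settle it, since partners could carry different numbers. Over 94 named probes and all alternatives, 3603 values kept their direction and side of the threshold, 298 lost the call, 36 gained it and 5 changed sign. This tally covers the comparisons with 48 h and holds no value of 24 h against on. Signal near background limits the dim members.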
